A study of Mus musculus with 6 samples.

Results

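The transcription factors that direct mesoderm into heart, bone, cartilage and brown fat were examined in C2C12 cells, a mouse myoblast line committed to skeletal muscle. They are Nkx2-5, Gata4, Gata6, Tbx5 and Hand2 for heart, Runx2 and Sp7 for bone, Sox9 and Sox5 for cartilage, and Prdm16 for brown fat. Every probe set whose single gene symbol in the platform annotation was one of these 10 was taken, which gave 26 probe sets of 9 genes among 45101 on the array. Runx2 was not analysed here. Cells were seeded at 1500 per square centimetre in medium with 10% newborn calf serum and grown for 24 hours. They then received either the same medium alone (untreated, 3 arrays) or medium with 10 µM 5-azacytidine (5AC, 3 arrays), and total RNA was taken on day 3. Both groups are one immortal line. Nothing in the labels ties the 3 replicates to independent cultures, so each p-value reflects array-to-array spread that may be technical.

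Factors of this kind bind DNA, open the gene programme of one lineage and often hold that of another in check. Prdm16, for example, steers precursors shared with skeletal muscle towards brown fat. 5AC is a drug that resembles cytidine, enters DNA and RNA, and binds the enzymes that copy cytosine methylation, which therefore thins out over cell divisions. It is known for turning an embryonic mouse fibroblast line into muscle, fat and cartilage cells, and the comparison asks whether regulators of other mesodermal lineages respond in cells that are already myoblasts.

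None of the 9 genes passed the test, 0 higher and 0 lower, where 29.3% of all 18193 genes did, 15.5% higher and 13.8% lower (limma with Benjamini-Hochberg adjustment over all genes, threshold 0.05). Their adjusted p-values ran from 0.151 for Sox9 to 0.686 for Hand2, and 0 of the 9 had an unadjusted p under 0.05, against 39.6% of all genes. The changes, as 5AC minus untreated on the log2(intensity + 1) scale, were above 0 for 6 genes and below 0 for 3. Their median was 0.18, beside 0.01 over all genes, and the median size without sign was 0.28, beside 0.29. The changes were thus of a size common among all genes, and none exceeded the spread between replicates by this test. For 7 of the 9 genes the 95% interval of the change, not adjusted for the number of genes, stayed within 2-fold in both directions. Only the intervals of Gata4 and Prdm16 reached past it.

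The deposited table gives intensity on a linear scale without detection calls, so a dim value cannot be told from absence of RNA. As a rough yardstick, 44 probe sets of 39 odorant receptor genes, which are mainly active in olfactory neurons, had a 95th percentile of 16.9 in untreated and 15.1 in 5AC arrays. Probe sets differ in how strongly they bind their target, so this line is only a rough divide between values near background and above it. It ranks no gene over another. The probe sets that represent the genes, each the one with the highest mean log2 value, were above the line in both groups for 6 of 9 genes. These were Nkx2-5, Gata4, Tbx5, Sp7, Sox9 and Sox5. The count rests on group means, and single arrays of Gata4 (14.6, untreated), Tbx5 (15.96, untreated) and Sox5 (11.8, 5AC) lay below the line. Gata6 and Hand2 were above it in 5AC alone and Prdm16 in neither group, and of all 26 probe sets 7 were above it in both groups. The means were 15.1 untreated and 18.7 in 5AC for Gata6, and 16.7 and 18.5 for Hand2. With a line that is lower in 5AC, this split is not read as a change. Brightness matters for the reading: 40.5% of genes above the line in both groups passed the test and 9.30% of the others did.

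**Figure D1:**
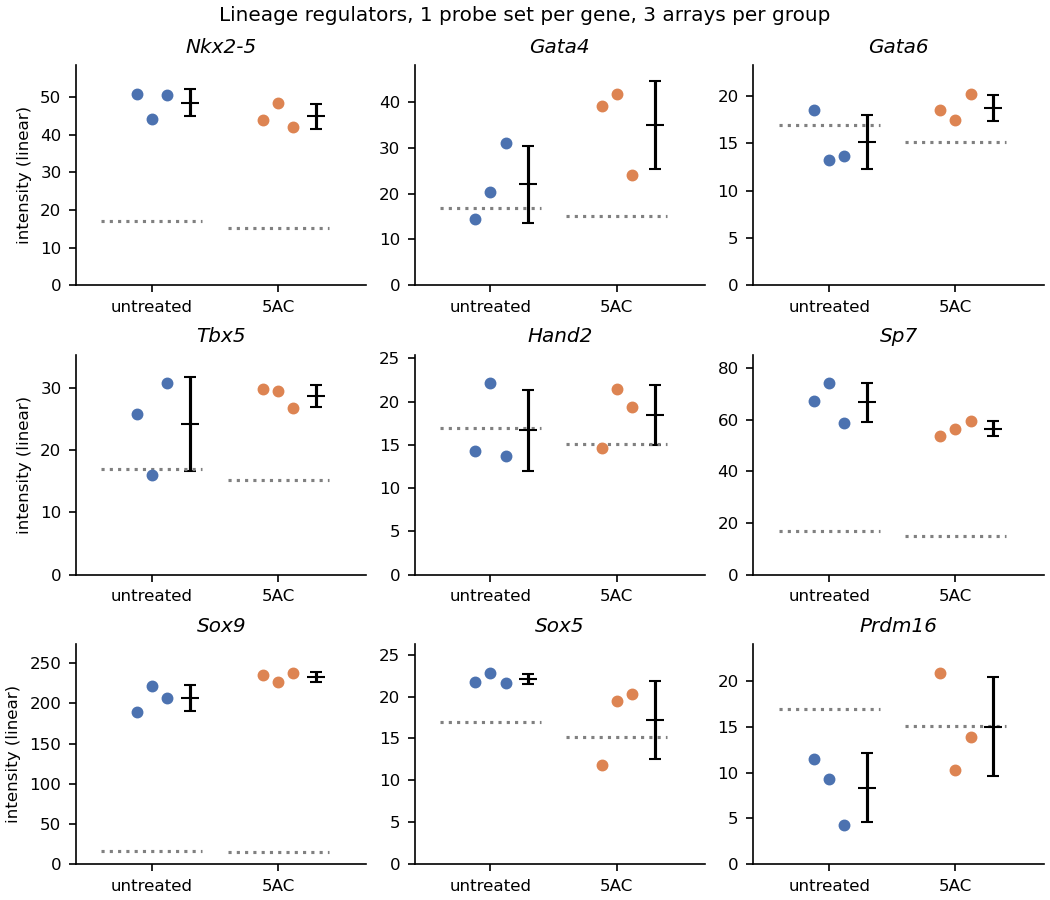
Intensity on a linear axis starting at 0 (arbitrary units) for the probe set with the highest mean log2 value of each of the 9 lineage regulators, 1 point per array, 3 untreated and 3 5AC. The black mark and bar are the mean and SD, the dotted lines the 95th percentile of odorant receptor probe sets (16.9 untreated, 15.1 5AC); Sox9 lies far above the lines, and groups overlap in every panel other than Sox9 and Sox5.

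Among the heart regulators, Nkx2-5, a homeobox factor of the early heart field, was level. Its only probe set read 50.9, 44.3 and 50.5 on the untreated arrays and 44.0, 48.5 and 42.2 on the 5AC arrays. The groups overlapped, and every array stood well above the odorant receptor line. The log2 change was -0.11 ± 0.09 (SE, limma adjusted p = 0.428), and its interval covers 0.792-fold to 1.08-fold. Leaving out single arrays moved it between -0.17 (without untreated replicate 2) and -0.068 (without 5AC replicate 3). A rise of Nkx2-5 beyond that bound is thus outside the interval of these arrays.

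Gata4, a zinc finger factor that works with Nkx2-5 and Tbx5, varied widely within both groups. The untreated arrays read 14.6, 20.5 and 31.2, and the 5AC arrays 39.3, 41.9 and 24.1. Of the 5AC arrays 1 fell inside the untreated range, so the groups overlapped. The log2 change was 0.67 ± 0.34 (limma adjusted p = 0.223), with an interval from 0.867-fold to 2.92-fold, and was 0.42 without untreated replicate 1. The other Gata4 probe set, near background, went the other way, from 11.1, 13.9 and 11.5 untreated to 13.1, 4.90 and 3.01 in 5AC, a log2 change of -0.92 ± 0.48 (limma adjusted p over all probe sets 0.282). These probe sets give no common direction for Gata4.

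Gata6, a close relative with a role in heart and gut, read 18.5, 13.3 and 13.7 untreated and 18.5, 17.4 and 20.2 in 5AC. All 5AC values lay at or above 17.4, but the first untreated array lay among them. This gave a log2 change of 0.30 ± 0.14 (limma adjusted p = 0.191), which without untreated replicate 1 was 0.44 and passed, with adjusted p = 0.0336. The second Gata6 probe set had a log2 change of 0.69 ± 0.40 and the dimmest of -0.05 ± 0.12, neither past the threshold. With intensities at the odorant receptor line, Gata6 gives no call that holds with all arrays.

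Tbx5, the T-box factor of heart and forelimb, read 25.8, 15.96 and 30.7 untreated and 29.8, 29.4 and 26.7 in 5AC. The 5AC arrays lay inside the untreated range, and the spread was wider in untreated cells (SD 7.49) than in 5AC (SD 1.703). Tbx5 thus had a log2 change of 0.28 ± 0.24 (limma adjusted p = 0.461). It rested on single untreated arrays, with 0.024 without untreated replicate 2 and 0.47 without untreated replicate 3. Its other probe set stayed between 0.00742 and 2.06 on all arrays, among the dimmest values on the chip.

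Hand2, a basic helix-loop-helix factor of the heart ventricle and limb, read 14.3, 22.1 and 13.7 untreated and 14.7, 21.5 and 19.3 in 5AC. Low and high arrays occurred in both groups. Hand2 had a log2 change of 0.15 ± 0.23 (limma adjusted p = 0.686), with an interval from 0.739-fold to 1.67-fold. It was 0.034 without untreated replicate 3 and 0.36 without untreated replicate 2. The other Hand2 probe sets had log2 changes of -0.34 ± 0.19 and 0.39 ± 0.67, the latter from values between -2.94 and 2.36 that include readings below 0.

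For bone, Sp7 (osterix), a zinc finger factor needed for osteoblasts to form, was clearly above the odorant receptor line. Its only probe set read 67.2, 74.0 and 58.9 untreated and 53.7, 56.5 and 59.6 in 5AC. The highest 5AC array exceeded the lowest untreated array, so the groups overlapped narrowly. The log2 change was -0.23 ± 0.10 (limma adjusted p = 0.166), with an interval from 0.713-fold to 1.02-fold, and was -0.15 without untreated replicate 2. No increase of Sp7 above that bound lies within the interval.

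Of the cartilage regulators, Sox9, the factor that commits cells to cartilage, had the brightest probe set of all 26. It read 190, 222 and 207 on untreated arrays and 235, 226 and 238 on 5AC arrays. All 5AC arrays were higher than all untreated arrays, as for 24.1% of all genes. The log2 change was 0.18 ± 0.08, or 1.13-fold with an interval from 0.990-fold to 1.29-fold (limma adjusted p = 0.151), and it was 0.12 without untreated replicate 1. With an intensity trend and robust moderation of the variance the same change passed, with adjusted p = 0.0408. A second bright Sox9 probe set gave nearly the same change, 0.15 ± 0.11, from 122, 126 and 132 untreated to 149, 153 and 122 in 5AC, but its groups overlapped. The third Sox9 probe set, at 7.996 to 17.4, lay near background with -0.29 ± 0.35. On these arrays the intervals of both bright Sox9 probe sets, not adjusted for multiple testing, thus stayed well under 2-fold.

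Sox5, which has no activation domain of its own and helps Sox9 on cartilage genes, was covered by 7 probe sets. The representing one read 21.8, 22.8 and 21.7 untreated and 11.8, 19.5 and 20.3 in 5AC. All 5AC arrays were lower, as for 21.2% of all genes, and 5AC replicate 1 alone was far below the rest. For this probe set the log2 change was -0.38 ± 0.21 (limma adjusted p = 0.260), and -0.14 without 5AC replicate 1. The other 6 had mean intensities from 3.49 to 10.1 and log2 changes from -0.63 to 0.83, with 4 above 0 and 2 below 0. None of the 7 passed, with adjusted p over all probe sets from 0.321 to 0.969.

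Prdm16, the brown fat regulator, was dim throughout. The representing probe set read 11.5, 9.36 and 4.24 untreated and 20.9, 10.3 and 13.9 in 5AC. The 5AC values were higher on average, at 15.0 ± 5.42 (SD, n = 3) against 8.38 ± 3.75 (SD, n = 3), but the groups overlapped and neither mean reached the odorant receptor line. On the log2 scale the change was 0.81 ± 0.42 (limma adjusted p = 0.224) and only 0.34 with 16 instead of 1 added before the log, since small differences near 0 are inflated on the log scale. It was 0.44 without untreated replicate 3. The interval, from 0.841-fold to 3.66-fold, is the widest of the 9 genes. Another Prdm16 probe set went from 3.34, 4.02 and 8.33 to 1.58, 0.704 and 2.95, a log2 change of -1.18 ± 0.43 with non-overlapping groups (limma adjusted p over all probe sets 0.139). It was the only one of the 26 with an unadjusted p under 0.05 in the limma fit, where 30.2% of all probe sets were under that value.

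Probe sets of the same gene did not all share a direction, although the bright Sox9 probe sets did (0.18 and 0.15). Most of the 26 were not above the odorant receptor line in both groups, and the sign of a change near background is uncertain. For 7 of the 7 genes with more than 1 probe set, at least 1 change was above 0 and at least 1 below 0. The same count was not made over all genes, so it is not read as particular to these regulators. Over all 26 probe sets, 14 changes were above 0 and 12 below 0, and 0 passed the test (limma, adjusted over all probe sets), where 16.9% of all 45037 non-control probe sets did. The groups did not overlap for 1 probe set that was higher in 5AC and 2 that were lower, against 18.3% and 18.5% of all probe sets. Non-overlap among these probe sets was therefore no more common than over the whole array.

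**Figure D2:**
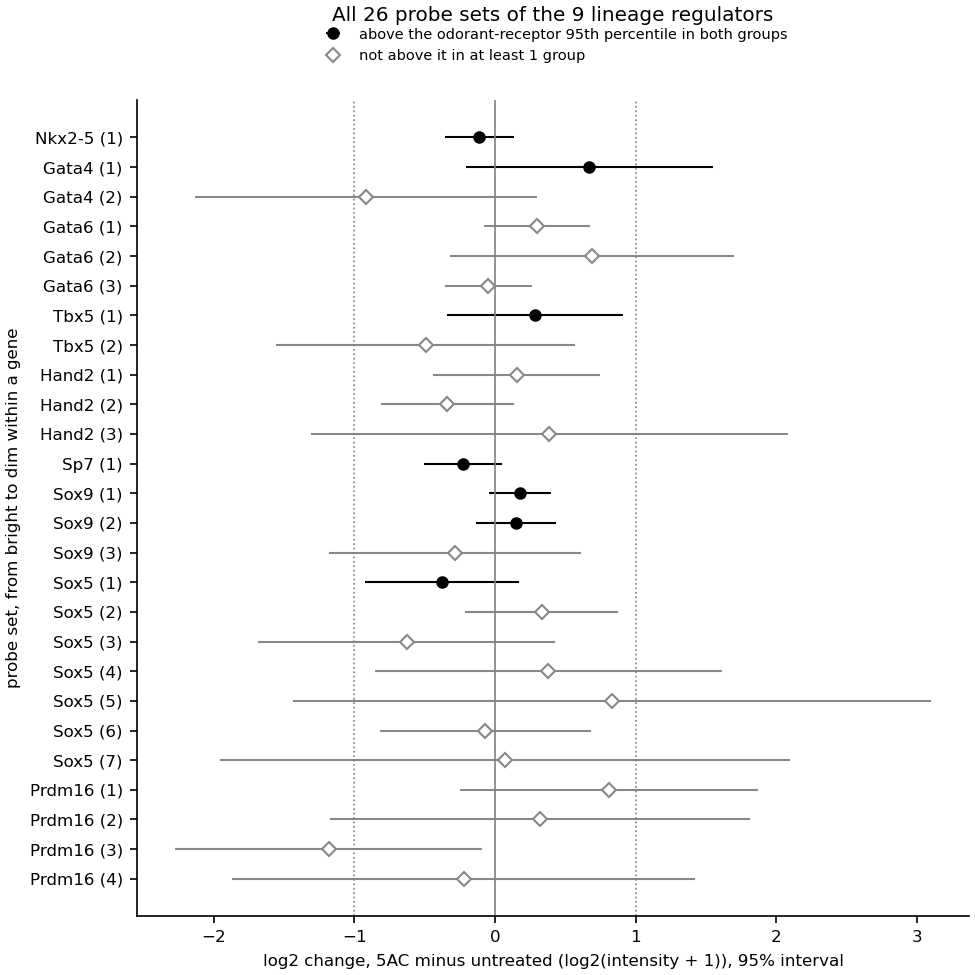
Change on the log2(intensity + 1) scale, 5AC minus untreated, with its 95% interval (bars, limma over all probe sets, n = 3 arrays per group), for each of the 26 probe sets, ordered from bright to dim within a gene. Filled circles are the 7 probe sets above the odorant receptor 95th percentile in both groups, open diamonds the others; dotted lines mark 2-fold, and 1 interval, of a dim Prdm16 probe set, leaves out 0.

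CpG dinucleotides are the sites where the enzymes that 5AC binds copy DNA methylation, so promoter windows of regulators were read for them. Windows of 300 bases, from 250 before to 50 after the gene start (RefSeq, GRCm38.p6), were matched for Prdm16, Hand2, Nkx2-5, Sox5 and Runx2. The letters CG, the same on both strands, occurred 24 times in the Prdm16 window, 17 times in Hand2, 9 in Nkx2-5, 3 in Sox5 and 2 in Runx2. Over all 32851 windows the median was 7, and 94.6% held at least 1. At least as many as in Prdm16 were found in 20.0% of windows, and at least as many as in Sox5 in 76.7%. Windows of Gata4, Gata6, Tbx5, Sp7 and Sox9 were not read here. Among the windows read for analysed genes, the richest and the poorest are printed, 5′ to 3′ on the gene's strand, with CpG in capitals. They were chosen by CpG count and not by RNA level. The Prdm16 window is chr4:154636824-154637123 (minus strand) and the Sox5 window chr6:143947057-143947356 (minus strand).
Prdm16: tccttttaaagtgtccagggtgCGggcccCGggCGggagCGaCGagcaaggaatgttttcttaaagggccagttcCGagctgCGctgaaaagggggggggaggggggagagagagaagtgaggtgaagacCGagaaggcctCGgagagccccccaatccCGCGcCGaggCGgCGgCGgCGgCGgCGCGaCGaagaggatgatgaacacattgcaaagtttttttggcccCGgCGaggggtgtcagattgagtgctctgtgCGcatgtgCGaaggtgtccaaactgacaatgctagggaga
Sox5: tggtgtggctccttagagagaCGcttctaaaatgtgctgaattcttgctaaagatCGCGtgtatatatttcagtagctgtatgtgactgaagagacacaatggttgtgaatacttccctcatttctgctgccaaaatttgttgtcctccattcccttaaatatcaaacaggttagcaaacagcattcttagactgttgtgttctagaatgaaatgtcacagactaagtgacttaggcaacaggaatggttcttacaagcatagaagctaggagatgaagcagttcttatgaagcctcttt
The Prdm16 window has 61.0% G and C, with an observed over expected CpG ratio of 0.939, and the Sox5 window 39.7% and 0.256. No analysed regulator passed the test, with or without a window read, so calls cannot be set against CpG content here. Methylation itself was not measured.

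Of the skeletal muscle factors Myog, Myod1 and Myf5 on the same arrays, Myog and Myod1 passed and Myf5 did not. Myog, which drives terminal muscle differentiation, rose by 1.47 on the log2 scale (limma adjusted p = 0.00104) and Myod1 fell by 0.54 (0.00589), while Myf5 had a log2 change of -0.25 (limma adjusted p = 0.153). All 8 measured myoblast identity genes were above the odorant receptor line in both groups, with 1 higher and 6 lower. That is 87.5%, beside 29.3% of all genes, 40.5% of genes above the line in both groups and 9.30% of the others. The summed intensity of the 8 was 5867 to 6153 on untreated and 4984 to 5260 on 5AC arrays. Lists differ in length and probe sets in binding, so each sum is read only against itself in the other group. The 6 cardiomyocyte markers summed to 148 to 158 untreated and 125 to 161 in 5AC, the 5 osteoblast markers to 101 to 108 and 50.3 to 65.9, the 6 chondrocyte markers to 41.5 to 47.9 and 31.6 to 41.0, and the 5 brown adipocyte markers to 43.1 to 47.6 and 44.9 to 51.9. In each of these 4 lists only 1 marker was above the line in both groups: Nppb, the natriuretic peptide B gene, at 106 untreated and 84.3 in 5AC, Phex at 46.2 and 19.7, Col9a1 at 24.7 and 16.4, and Elovl3 at 24.5 and 27.2. The cartilage gene Cnmd and the brown fat gene Cidea had readings at or below 0 on at least 1 array. Epithelial markers summed to 181 to 219 untreated and 3048 to 3352 in 5AC. The keratins Krt8, Krt18 and Krt14 were higher and the other 4 of 7 had no call (42.9% called). Only 3 of these 7 were above the line in both groups, and 1 of those 3 had a call. Smooth muscle markers went from 3596 to 4489 up to 7437 to 7760, with 3 of 6 higher and 1 lower (66.7%). Endothelial markers summed to 72.1 to 81.0 and 55.1 to 70.9, with 1 of 7 lower (14.3%). Leukocyte markers summed to 135 to 161 and 139 to 153, with 0 of 6 called. Their part in the results was not tested.

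In the heart programme, 10.0% of the other regulators and 36.4% of the effector genes had a call, beside 29.3% of all genes. Of 20 other cardiac transcription factors 2 were higher and 0 lower, and the median log2 change was 0.10. Tbx1, a T-box factor of the pharyngeal and second heart field, rose from 40.1 ± 4.98 to 76.0 ± 5.67 (SD, n = 3 each), a log2 change of 0.91 ± 0.11. Nfatc1, of the heart valve lining, rose by 0.80 ± 0.15, a call that was lost without untreated replicate 1 or any of the 5AC arrays (adjusted p = 0.0520 to 0.0559). Of 22 measured cardiac effector genes 6 were higher and 2 lower, with a median log2 change of 0.04. The largest were Actc1, cardiac actin, from 324 ± 64.1 to 1716 ± 84.4 (log2 change 2.42 ± 0.15), Tnni1, slow skeletal troponin I (1.74 ± 0.18), and Myl4, the atrial and embryonic light chain (1.68 ± 0.18). Embryonic skeletal muscle also makes these 3. Myh6, cardiac alpha myosin and a defining marker, was called higher at 8.27 untreated and 12.2 in 5AC, both under the odorant receptor line. Tnnt2, cardiac troponin T, fell by 0.59.

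In the bone programme, lower calls outnumbered higher ones among effector genes. Of 18 measured osteoblast effector and marker genes 8 were lower and 3 higher (61.1% called, beside 29.3% of all genes), with a median log2 change of -0.33 beside 0.01 over all genes. Only 7 of the 18 were above the odorant receptor line in both groups, and all 7 had a call. Sparc, Col1a1, Col1a2, Phex and Ank were lower, and Postn and Vdr higher. Sparc and Col1a2 were bright in untreated myoblasts, with means of 4637 and 1794.5. Whether the list stands for an osteoblast programme in these cells was not tested. The called genes Dmp1, Mepe, Mmp13 and Omd were not above the line in both groups. Dmp1, a matrix protein of osteocytes, went from 23.2 ± 3.60 to 5.03 ± 1.85 (SD, n = 3 each) (log2 change -2.04 ± 0.25, or -0.90 with 16 added). The other Dmp1 probe sets gave -1.75 and -1.56 without a call (limma adjusted p over all probe sets 0.122 and 0.0550). Vdr, the vitamin D receptor, rose from 47.3 ± 6.34 to 177 ± 11.7 (1.89 ± 0.11), and Omd, osteomodulin, rose from 7.19 ± 2.83 to 27.1 ± 2.18 (1.83 ± 0.25, or 0.90 with 16 added). Of 18 other osteoblast transcription factors 2 were higher and 3 lower, 27.8% and thus near the share of all genes. Dlx3, a homeobox factor, went from 94.9 ± 18.6 to 35.9 ± 3.96 (-1.36 ± 0.18), Foxo1 rose by 0.73 ± 0.10, and Runx1, the blood-forming relative of Runx2, had a change of -0.44 ± 0.08, a call that was lost without untreated replicate 1, 5AC replicate 1 or 5AC replicate 2 (adjusted p = 0.0561 to 0.0607) and with the mean of its probe sets (adjusted p = 0.0705).

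In the cartilage programme, 3 matrix genes and 5 transcription factors passed. Of 23 measured chondrocyte matrix and marker genes 1 was higher and 2 lower. That is 13.0%, in a list with only 6 genes above the odorant receptor line in both groups, beside 29.3% of all genes and 9.30% of genes not above that line. None of the 3 called genes was above the line in both groups. Col2a1, the main cartilage collagen, was listed at 0.394 ± 0.298 untreated and 3.10 ± 1.51 in 5AC, so its log2 change of 1.50 lies within the dimmest values and lost its call with 16 added (adjusted p = 0.0596) and without 5 of the 6 arrays left out one at a time. Matn3 fell from 14.3 ± 2.32 to 6.30 ± 1.37 (-1.08 ± 0.18) and Epyc had a change of -0.82 ± 0.21, both matrix proteins, with the call of Epyc lost without 4 of the 6 arrays one at a time (adjusted p up to 0.117). Of 16 other chondrocyte transcription factors 1 was higher and 4 lower, or 31.2%, beside 29.3% of all genes. Prrx1, a homeobox factor of limb mesenchyme, went from 489 ± 20.4 to 277 ± 1.71 (-0.82 ± 0.06) by its brightest probe set, although another probe set rose by 0.68 and the mean of its probe sets gave -0.18 without a call (adjusted p = 0.366). Arid5b, a cofactor of Sox9, rose by 0.51 ± 0.05 by its brightest probe set, but by the mean of its probe sets the change was 0.25 and not called (adjusted p = 0.109). Scx, the tendon factor, had a change of -0.40, a call lost with the mean of its probe sets (adjusted p = 0.0777).

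In the brown fat programme, 11 of 21 adipocyte transcription factors and coactivators passed, 7 higher and 4 lower. That is 52.4%, beside 29.3% of all genes and 40.5% of genes above the odorant receptor line in both groups, where 15 of the 21 lay. Ebf1 went from 57.1 ± 2.64 to 154 ± 9.31 (log2 change 1.41 ± 0.07) and Pparg, the nuclear receptor at the head of fat cell formation, from 79.9 ± 9.18 to 142 ± 7.69 (0.83 ± 0.10). Cebpa, its partner in mature fat cells, fell from 28.8 ± 3.81 to 13.4 ± 2.33 (-1.05 ± 0.16, or -0.61 with 16 added). Of 19 measured thermogenic and adipocyte effector genes only 7 were above that line in both groups, and 9.30% of all genes not above it passed. Among the 19, 2 were higher and 0 lower, or 10.5%, beside 29.3% of all genes. These were Acot2, a mitochondrial acyl-CoA thioesterase, from 53.9 ± 4.50 to 274 ± 9.14 (2.33 ± 0.08), and Fabp3, the fatty acid binding protein of heart and skeletal muscle (1.09 ± 0.14, but 0.61 without a call by the mean of its probe sets, adjusted p = 0.0541). None of the 5 measured brown adipocyte markers had a call by limma.

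The signals that act upstream of these factors include bone morphogenetic proteins, which turn C2C12 cells towards bone when added, and hedgehog. Of 27 measured genes of both pathways 1 was higher and 5 lower (22.2%, beside 29.3% of all genes), with a median log2 change of 0.04. Hhip, a hedgehog-binding inhibitor that hedgehog itself induces, went from 94.6 ± 8.66 to 28.0 ± 1.06 (-1.72 ± 0.08), and its other 3 probe sets gave -2.05 to -2.13. Smad7, an inhibitor of receptor signalling, rose by 0.56 ± 0.08, and Ptch1, the hedgehog receptor, had a change of -0.53 ± 0.09, which was -0.34 without a call by the mean of its probe sets (adjusted p = 0.313).

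**Figure D3:**
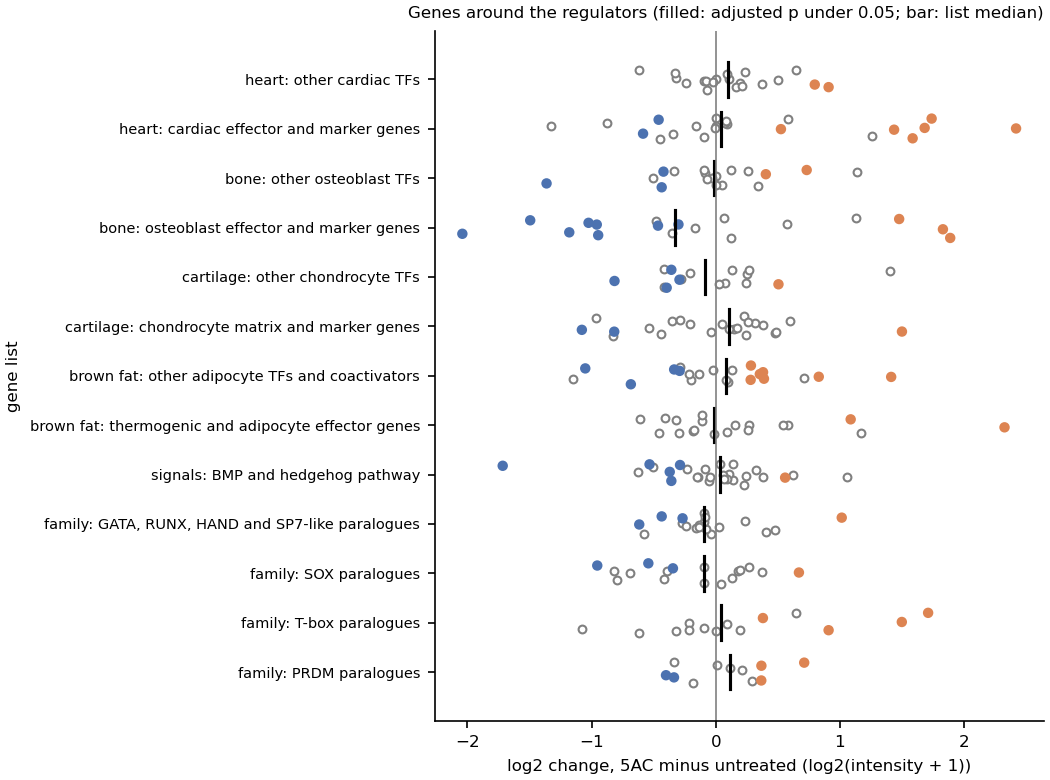
Log2 change, 5AC minus untreated, on the log2(intensity + 1) scale for each measured gene of 13 lists around the lineage regulators, 1 point per gene, with vertical scatter for legibility. Filled points passed the test (orange higher, blue lower), open points did not, and black bars are list medians; osteoblast effector genes have the lowest median, -0.33, and the others lie between -0.10 and 0.11.

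Among paralogues of the regulators, calls were counted by family, beside 29.3% of all genes. Of 19 measured relatives of the GATA, RUNX, HAND, SP and NKX2 factors 1 was higher and 3 lower (21.1%), of 17 SOX genes 1 and 3 (23.5%), of 14 T-box genes 4 and 0 (28.6%), and of 11 PRDM genes 3 and 2 (45.5%). Sox2, a pluripotency and neural factor, went from 39.8 ± 2.94 to 20.1 ± 2.56 (-0.95 ± 0.12, or -0.63 with 16 added), and Sox11 had a change of -0.54 ± 0.07 by its brightest probe set, with -1.15 to -1.49 by its other 5 and -1.14 by their mean with it. Sox12 had a change of 0.67 ± 0.06, which reversed to -0.0695 with the mean of its probe sets. Mga, a large protein with a T-box and a MYC-like domain, rose from 53.7 ± 5.94 to 178 ± 14.5 (1.71 ± 0.11). Its second bright probe set gave 1.86, and the other 3, at mean intensities of 0.629 to 16.9, gave 0.00 to 0.44, so that the mean of all 5 was 0.83. Eomes, a mesendoderm T-box factor, was at 7.74 ± 3.30 and 22.9 ± 6.05 (1.50 ± 0.37), and its call was lost without untreated replicate 1 or any single 5AC array (adjusted p = 0.0589 to 0.0981), and with the mean of its probe sets (0.66, adjusted p = 0.331).

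Among the others, Nkx2-9 had a change of 1.01 ± 0.22 and Sp8, a limb ridge relative of Sp7, of -0.62 ± 0.11. The call of Nkx2-9 was lost without any single untreated array or 5AC replicate 3, and that of Sp8 without 5AC replicate 2 (adjusted p = 0.0534). Of the PRDM genes, Prdm8 had a change of 0.71 ± 0.15, with its call lost without 5AC replicate 2 or 5AC replicate 3. Prdm11 (-0.40 ± 0.11) and Prdm2 (0.37 ± 0.08) passed with all arrays and lost their calls in 5 of 6 single-array omissions each, and with the mean of their probe sets (log2 change -0.32 and 0.0097). The gene lists overlap, since Tbx1, Runx1 and Gli3 each stand in more than one.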

How the data were processed

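The members and gene lists were chosen with earlier results of these data known. The authors deposited linear intensity values, a column for each array and a row for each probe set. The submitters' processing notes name GCOS 1.4 and R 2.4.1 without a role, and summarisation and scaling are not stated in the labels. Medians of the arrays were 20.4 to 21.0, and 2.42% to 2.59% of values were below 0. The number of arrays limits the precision. Array correlations (log2 values) were 0.965 to 0.971 within and 0.949 to 0.954 between groups.

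The platform annotation gave 1 symbol for 34945 probe sets, several for 932 and none for 9160, and 64 were controls. Values below 0 (7 of 156 for the lineage regulators) were set to 0, and log2(intensity + 1) was taken. For each gene the probe set of highest mean log2 value stood for it. Differences were tested two-sided with limma 3.58.1 in R 4.3.3 (lmFit, eBayes), adjusted over all genes, and separately over all non-control probe sets, a procedure tested on simulated data. A second offset, 16, is given where it matters. An exact permutation test of 3 against 3 arrays cannot go below p = 0.1.

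Named were all regulators, up to 3 called genes with the largest change per list, Myod1, Myf5 and Myog. Others with values (Tnnt2, Myh6, Sparc, Col1a2 and the defining markers) were chosen after their values were seen. The genes most like a called regulator were to be named too, and none was called. Promoters were to be printed for called regulators; the 2 printed were chosen later. Alternatives were 2 normalizations, a replicate block, the offset, a limit on dim genes, other moderation, other probe-set rules, a stricter threshold, a 2-fold limit and leaving out each array.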

Additional observations from a re-analysis of the deposited data

How the results depend on the processing

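The absence of calls among the 9 regulators held under quantile normalization, median centring, an offset of 16 and the mean of probe sets. It also held with a limit on dim genes, which leaves out Gata6, Hand2, Sox5 and Prdm16. The stricter threshold and the 2-fold limit can only remove calls, so their outcome of 0 was fixed in advance. Taking a probe set without a suffix left the log2 change of each regulator as it was, so it was hardly a separate check. With an intensity trend and robust moderation 1 of them passed (Sox9). With single arrays left out, 0 to 1 genes and 0 to 1 probe sets passed: Gata6 without untreated replicate 1 and, lower, the dim Gata4 probe set without 5AC replicate 1 (log2 change -1.43, adjusted p = 0.0383). Of 131 values of the regulators' changes under alternatives 125 kept direction and side of the threshold. Several alternatives, such as the stricter threshold, the replicate block and other moderation, leave the change itself as it was. The 131 are therefore not separate checks of direction. With the mean of all probe sets the direction reversed for Gata4 (-0.12), Tbx5 (-0.11), Sox5 (0.077) and Prdm16 (-0.0693), as it did for Sox12 (-0.0695); dim probe sets weigh as much as bright ones there. The replicate numbers did not pair the arrays (correlations of same-numbered deviations -0.04, 0.01 and -0.01). As a replicate block they left 3216 of 5333 genes past the threshold and 0 regulators. A threshold of 0.01 left 2833 genes and the 2-fold limit 936, and single arrays left out gave 3675 to 4540. Of 564 values of the other 38 named genes 495 kept direction and call, 67 lost the call, 1 gained it and 1 reversed. Intensities near background limit Prdm16, Gata6 and Hand2 most.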

Other observations

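Among 229 measured genes of the lists around the regulators, 1 had probe sets past the threshold in both directions, Prrx1, a homeobox factor of limb mesenchyme. Its brightest probe set went from 489 ± 20.4 untreated to 277 ± 1.71 in 5AC (SD, n = 3 each), and another from 99.9 ± 14.6 to 64.5 ± 3.28. The remaining one went from 158 ± 4.86 to 253 ± 12.2, a log2 change of 0.68 ± 0.07 (limma adjusted p = 0.00555 over all probe sets). The platform table gives the same symbol for all 3, and which transcripts they detect was not tested.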
